A study of Mus musculus with 3 samples.

Results

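The genes described here are named for the protein subunits of the mitochondrial ribosome. Every gene on the array was taken whose symbol begins with Mrpl or Mrps, a number and at most a letter from a to c. Mrps36, taken by its symbol, is known in mammals from another complex, as given below. The rule found 76 of 23185 genes with a symbol, 48 with a large subunit symbol (Mrpl) and 28 with a small subunit symbol (Mrps). The mitochondrial ribosome sits inside the organelle and makes only the few respiratory chain subunits encoded by mitochondrial DNA. Its RNAs come from mitochondrial DNA, whereas all its proteins are encoded in the nucleus, made in the cytosol and imported. LT-HSCs (long-term haematopoietic stem cells), marrow cells that maintain blood formation for life, are known for relying little on respiration while quiescent and more once they divide and differentiate.

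RNA came from LT-HSCs of the bone marrow of female C57Bl/6 mice aged 8 to 10 weeks. The groups were mice given total body irradiation (TBI) of 8 Gy as FLASH, mice given 8 Gy TBI at CDR, and non-irradiated mice, with no other genetic change or agent named in any group. FLASH is dose delivery at an ultra-high rate, and CDR was read as conventional dose rate. Cells were taken 15 days after TBI, 10000 per the labels, and total RNA was hybridised to Affymetrix arrays. The same day is recorded for the non-irradiated mice, which had no TBI. Each group had 1 array, and how many mice stood behind an array is not given in the sources used here.

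With 1 array per group there is no spread between replicates, no test was possible, and "higher" and "lower" describe these arrays only. Values are the authors' log2 levels, and a difference is one array's log2 level minus another's. A gene counted as detected when its mean over the 3 arrays exceeded 4.18, the mean of the arrays' detection levels (4.22 on FLASH, 4.16 on CDR and 4.15 on non-irradiated), each the 95th percentile of 1364 chemosensory receptor genes (Olfr, Vmn and Taar symbols), assumed silent in these cells. This held for 13139 genes, and for 75 of the 76 mitochondrial ribosomal protein genes. Exact ties between arrays were common: 27.1% of detected genes held the same value on all 3 arrays, against 6 of these 75 genes (8%). Of 12 markers of LT-HSCs, 10 were measured, Procr, Slamf1, Kit and Hlf among them, and each read above the detection level on every array. Of 4 markers of progenitors that LT-HSCs are held to lack, 3 also did: Cd34 (10.81 on FLASH, 10.92 on CDR and 11.25 on non-irradiated), Cd48 (10.05 on FLASH, 10.18 on CDR and 9.70 on non-irradiated) and Flt3 (7.22 on FLASH, 7.64 on CDR and 8.69 on non-irradiated). The cells are called LT-HSCs here as the labels name them, and these markers do not show that other cells were absent.

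Nearly all mitochondrial ribosomal protein genes read slightly higher on both irradiated arrays than on the non-irradiated one. On the FLASH array 68 of 75 were higher, 6 had the same value and 1 was lower, whereas 33.7% of all detected genes were higher, 33.9% the same and 32.3% lower. On the CDR array 65 of 75 were higher, 8 the same and 2 lower, whereas 35.0% of all detected genes were higher, 34.9% the same and 30.1% lower. Both comparisons use the same non-irradiated array, so the second is not an independent repeat of the first.

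The differences were small. Their median was 0.24 on FLASH (1.18-fold), with values from -0.09 to 0.96, and 0.23 on CDR (1.17-fold), with values from -0.07 to 0.77. The median of all detected genes was 0 in both comparisons. Genes were counted as past the threshold when they read at least 25% higher, or in the other direction at least 20% lower, on the linear scale, which is the same distance on the log scale. On FLASH 23 of 75 genes passed it upward and 0 downward, beside 9.7% and 11.2% of all detected genes. On CDR 24 passed it upward and 0 downward, beside 9.8% and 10.6%. At 1.5-fold the counts were 3 on FLASH (background 3.4%) and 4 on CDR (background 3.16%), and 0 genes reached 2-fold on either array (backgrounds 1.09% and 0.738%).

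The shift was therefore one of many genes by a little. On FLASH 62 of the 75 genes lay above the 75th percentile of all detected genes and 23 above the 90th, and on CDR 60 and 24 did. Genes read at a like level as these were also more often higher than detected genes at large. Among 2404 genes whose mean level lay between the 25th and 75th percentiles of the 75 genes (7.92 to 9.31), 47.0% were higher on FLASH and 49.8% on CDR, with 14.1% and 14.9% at least 25% higher. The median difference in that band was 0 in both comparisons.

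**Figure D1:**
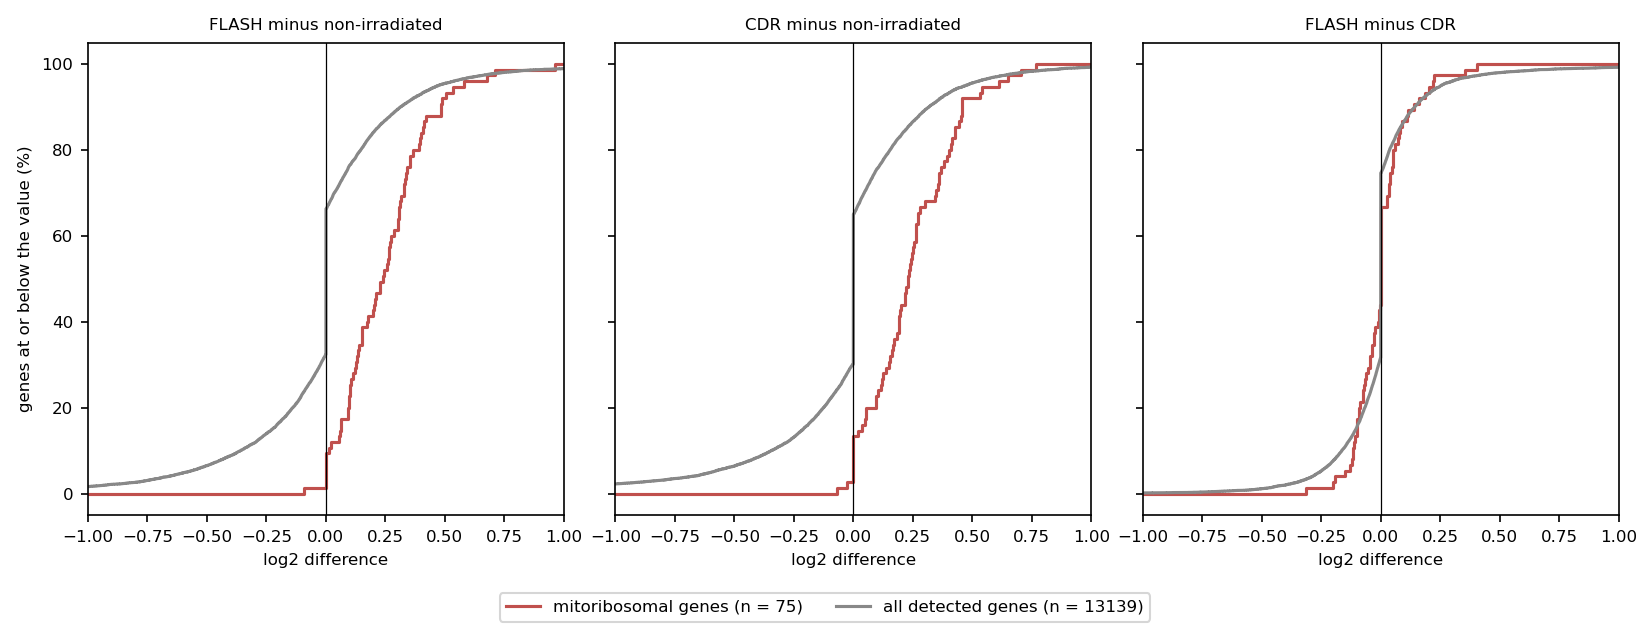
Share of genes (%) at or below each log2 difference, for the 75 detected mitochondrial ribosomal protein genes (red) and all 13139 detected genes (grey), in the 3 comparisons of 1 array each; the axis is cut at -1 and 1. In the FLASH and CDR comparisons with the non-irradiated array the red curve lies to the right of the grey one over most of its length, with medians of 0.24 and 0.23 against 0, while in FLASH minus CDR both medians are 0.

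**Figure D2:**
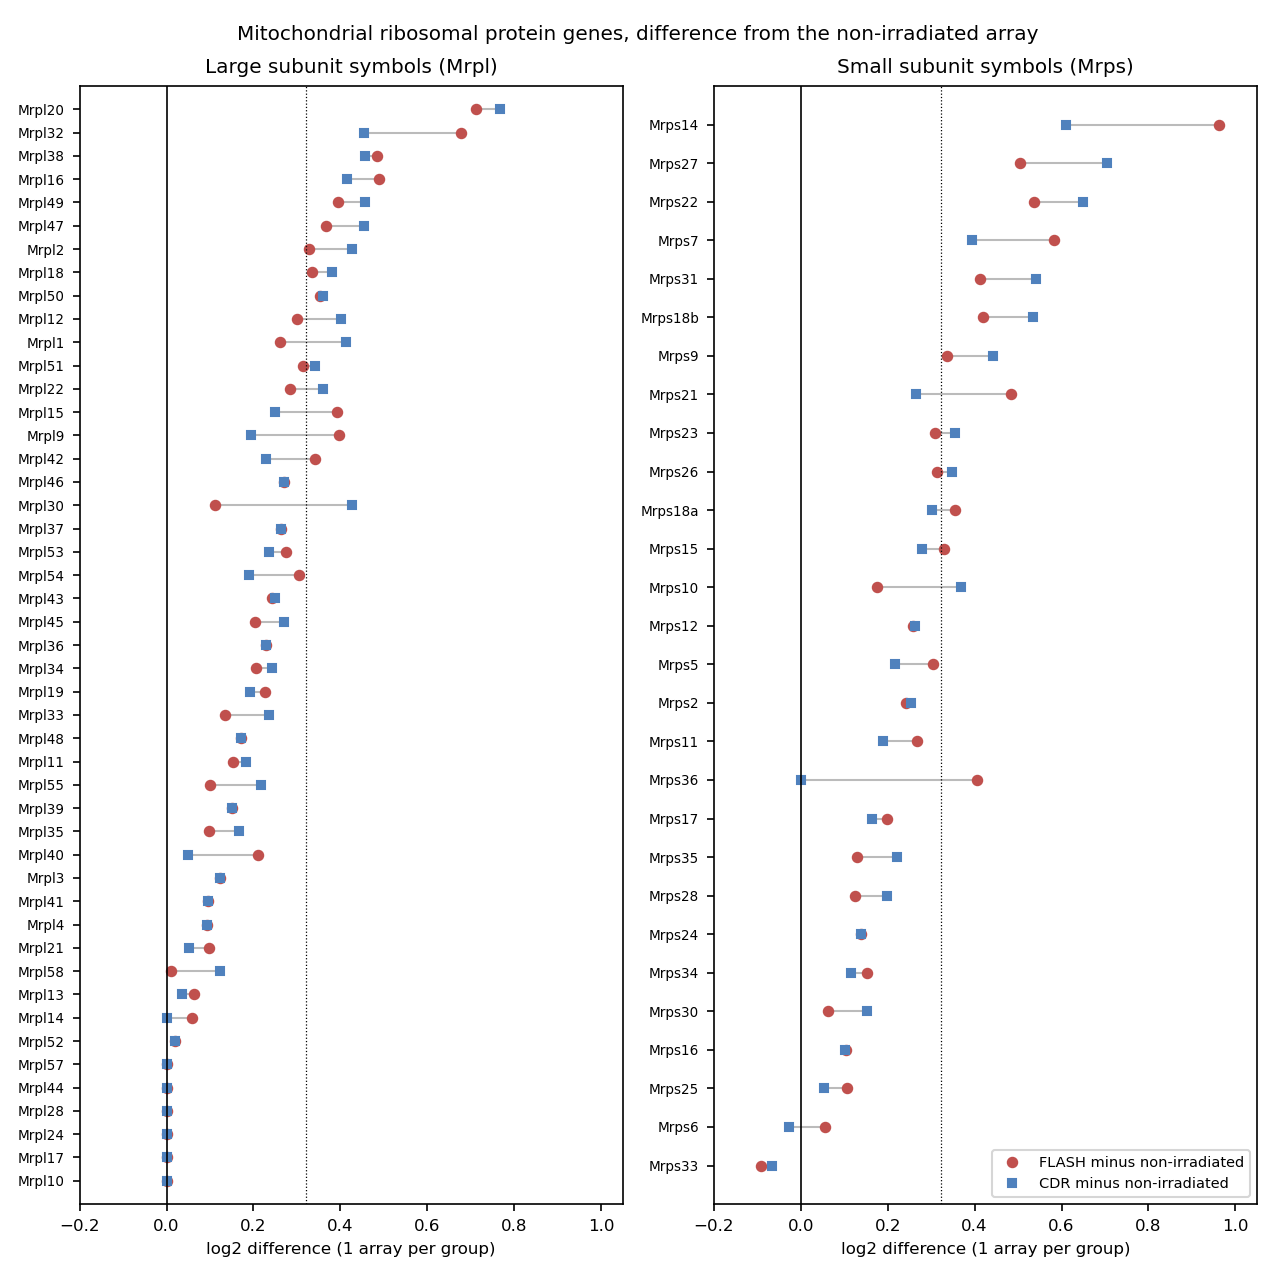
Log2 difference from the non-irradiated array for each of the 75 detected genes, on the FLASH array (red circles) and the CDR array (blue squares), with 1 array per group and so no error bars; the dotted line marks 25% higher. Mrps14, Mrpl20 and Mrpl32 stand highest on FLASH and Mrpl20, Mrps27 and Mrps22 on CDR, Mrps33 alone lies below 0 on both arrays, and 6 large subunit genes lie at 0 on both.

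The large subunit carries the peptidyl transferase centre, where amino acids are joined. Its 47 detected genes had a median difference of 0.21 on FLASH, with 41 higher and 6 the same, and 0.23 on CDR, with 40 higher and 7 the same. None of the 47 was lower on either irradiated array. Those at least 25% higher numbered 12 on FLASH and 14 on CDR, beside 9.7% and 9.8% of all detected genes.

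Around the peptidyl transferase centre, 4 genes were measured and all 4 were higher on both irradiated arrays, 2 of them by at least 25%. Mrpl16, whose bacterial homologue L16 helps position the incoming tRNA, read 9.12 on the FLASH array, 9.04 on CDR and 8.63 on non-irradiated. Mrpl2, homologue of the L2 protein needed for peptide bond formation in bacteria, read 9.13 on FLASH, 9.23 on CDR and 8.80 on non-irradiated. Both irradiated arrays thus stood above the non-irradiated one for both genes. Mrpl3 and Mrpl4 differed less, at 0.12 and 0.09 on each irradiated array.

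The mobile stalks of the large subunit guide tRNAs and translation factors. Mrpl1, of the stalk by which spent tRNA leaves, read 7.30 on FLASH, 7.46 on CDR and 7.04 on non-irradiated. Mrpl12, homologue of the L7/L12 protein that recruits the translation GTPases, read 11.02 on FLASH, 11.12 on CDR and 10.71 on non-irradiated. For Mrpl1 the difference was 0.26 on FLASH and 0.41 on CDR, and for Mrpl12 it was 0.30 on FLASH and 0.40 on CDR, so that both were at least 25% higher on CDR and neither was on FLASH. Mrpl11, at the base of the same stalk, stood at 0.15 on FLASH and 0.18 on CDR, and Mrpl10, which anchors Mrpl12, read 8.56 on all 3 arrays.

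At the exit of the tunnel through which the new chain leaves, 3 of 5 detected genes were higher on both irradiated arrays and the other two, Mrpl17 and Mrpl24, had the same value on all 3. Mrpl47, homologue of bacterial L29, read 8.51 on FLASH, 8.60 on CDR and 8.15 on non-irradiated. Mrpl22 was at 0.28 on FLASH and 0.36 on CDR, and Mrpl45, which in mammals ties the ribosome to the inner membrane, at 0.20 on FLASH and 0.27 on CDR. Mrpl23, also of the tunnel exit, was the only gene of the 76 not counted as detected. It read 4.52 on FLASH, above that array's detection level, and 3.90 on CDR and 3.74 on non-irradiated, both below theirs. Against the detection levels its FLASH level was at least 1.29-fold that on non-irradiated and at least 1.28-fold that on CDR.

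All 7 genes of the central protuberance, the crown of the large subunit that contacts the small one, were higher on both irradiated arrays, with medians of 0.21 on FLASH and 0.22 on CDR. Mrpl38 read 7.75 on FLASH, 7.72 on CDR and 7.27 on non-irradiated. Mrpl18, homologue of the L18 protein that binds 5S rRNA in bacteria, read 10.19 on FLASH, 10.24 on CDR and 9.86 on non-irradiated. These were the 2 genes of the protuberance at least 25% higher. Mrpl58, a peptidyl-tRNA hydrolase built into the ribosome that rescues stalled chains, was at 0.01 on FLASH and 0.12 on CDR.

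On FLASH the largest differences of the large subunit belonged to Mrpl20 and Mrpl32, and on CDR to Mrpl20, followed by Mrpl49, Mrpl38 and Mrpl32 at 0.46 each. Mrpl20 and Mrpl32 are both among the other 14 homologues of bacterial proteins, a group with medians of 0.17 on FLASH and 0.21 on CDR. Mrpl20, whose bacterial homologue L20 is needed early in subunit assembly, read 8.94 on FLASH, 9.0 on CDR and 8.23 on non-irradiated. It was 1.64-fold higher on FLASH and 1.70-fold higher on CDR. Mrpl32, which is trimmed by the m-AAA protease after import before it joins the ribosome, read 7.91 on FLASH, 7.68 on CDR and 7.23 on non-irradiated, 1.60-fold higher on FLASH and 1.37-fold higher on CDR. Mrpl9 was at 0.40 on FLASH and 0.19 on CDR, Mrpl15 at 0.39 on FLASH and 0.25 on CDR, and Mrpl30 at 0.11 on FLASH and 0.43 on CDR. Mrpl28 read 8.47 on every array, and Mrpl14 had the same value on CDR and non-irradiated.

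The 13 other large subunit genes with no bacterial counterpart had medians of 0.26 on FLASH and 0.23 on CDR. Mrpl49 read 8.23 on FLASH, 8.29 on CDR and 7.84 on non-irradiated, and it was the highest of this group on both irradiated arrays. Mrpl50 stood at 0.35 on FLASH and 0.36 on CDR. Mrpl44 and Mrpl57 read 8.05 and 7.76 on every array. Of the proteins that carry a small subunit symbol but sit in the large subunit of the mammalian mitoribosome, Mrps18a was at 0.35 on FLASH and 0.30 on CDR, and Mrps30 at 0.06 on FLASH and 0.15 on CDR.

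The small subunit binds mRNA and reads its codons. The 28 genes with a small subunit symbol had median differences of 0.29 on FLASH and 0.26 on CDR. On FLASH 27 were higher and 1 lower, with 11 at least 25% higher (9.7% of all detected genes). On CDR 25 were higher, 1 the same and 2 lower, with 10 at least 25% higher (9.8% of all detected genes).

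Among 15 measured homologues of bacterial small subunit proteins, all 15 were higher on FLASH and 14 on CDR. Mrps14, homologue of the S14 protein of the subunit's head, showed the widest gap of all 75 genes on FLASH. It read 6.45 on FLASH, 6.10 on CDR and 5.49 on non-irradiated, which is 1.95-fold higher on FLASH and 1.53-fold higher on CDR than on non-irradiated. Mrps7, homologue of the S7 protein that nucleates the head in bacteria, read 8.94 on FLASH, 8.76 on CDR and 8.36 on non-irradiated. For both genes the FLASH array was highest and the non-irradiated array lowest. Mrps21 was at 0.48 on FLASH and 0.26 on CDR, Mrps9 at 0.34 on FLASH and 0.44 on CDR, and Mrps12, whose homologue S12 helps check the codon match, at 0.26 on each. Mrps6 was the exception on CDR: it read 9.67 on FLASH, 9.58 on CDR and 9.61 on non-irradiated.

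The 10 small subunit genes with no bacterial counterpart in the same place had the highest median of the groups formed by place on both arrays, 0.31 on FLASH and 0.35 on CDR. At least 25% higher were 4 on FLASH and 6 on CDR, beside 9.7% and 9.8% of all detected genes. Mrps27, a pentatricopeptide repeat protein, a class that commonly binds RNA, read 6.79 on FLASH, 6.99 on CDR and 6.28 on non-irradiated. Mrps22 read 7.89 on FLASH, 8.00 on CDR and 7.35 on non-irradiated. In both the CDR array was highest and the non-irradiated array lowest. Mrps31 was at 0.41 on FLASH and 0.54 on CDR, and Mrps18b, a paralogue of Mrps18a, at 0.42 on FLASH and 0.53 on CDR. Mrps33 ran the other way, at 8.63 on FLASH, 8.65 on CDR and 8.72 on non-irradiated, differences of -0.09 on FLASH and -0.07 on CDR.

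Mrps36 carries a small subunit name but is known in mammals as a component of the 2-oxoglutarate dehydrogenase complex. By its symbol it stays in the counts of the 75 detected genes. It read 6.42 on FLASH and 6.01 on both CDR and non-irradiated.

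**Figure D3:**
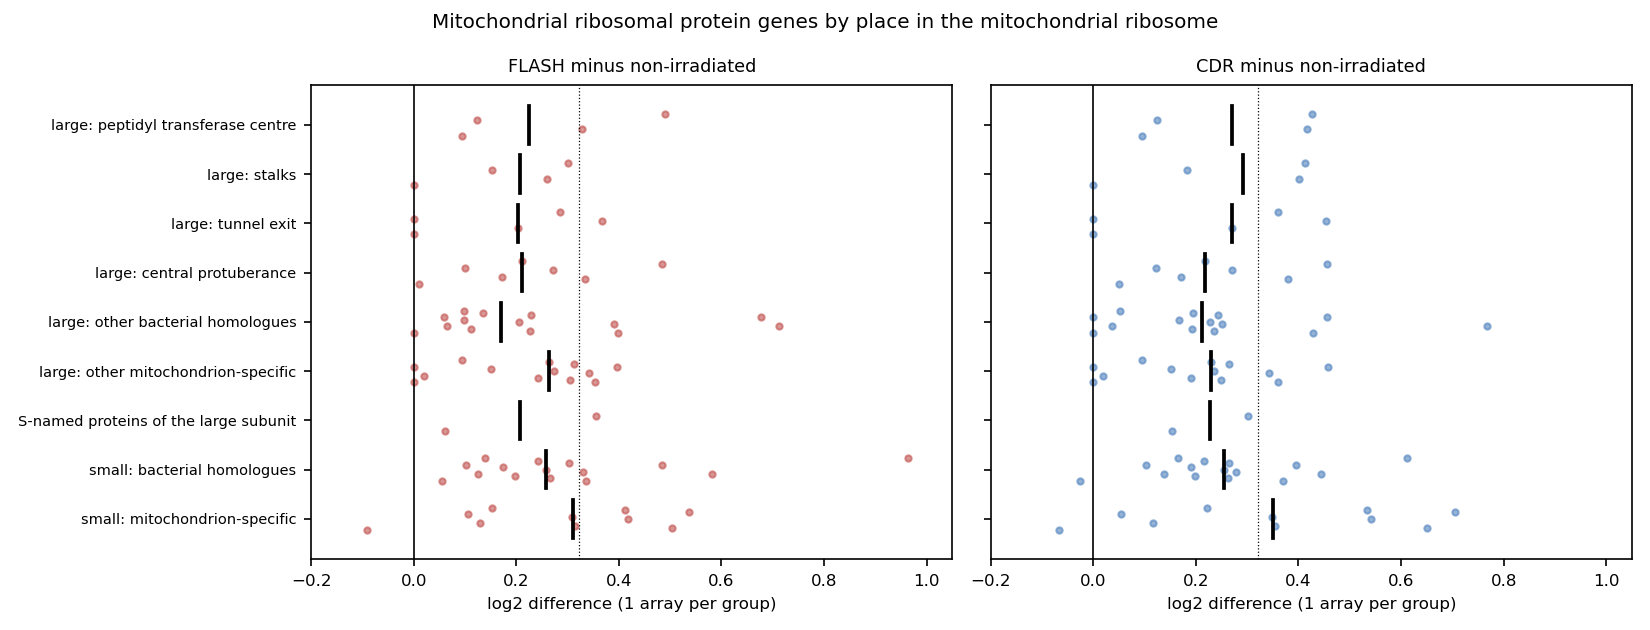
Log2 difference from the non-irradiated array of each detected gene assigned a place in the ribosome, on FLASH (left) and CDR (right). Mrps36, detected but assigned no place, is not drawn. Black bars are the medians by place, the dotted line marks 25% higher, and each treatment group had 1 array. All group medians lie above 0, from 0.17 to 0.31 on FLASH and from 0.21 to 0.35 on CDR.

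The FLASH and CDR arrays were set against each other to ask whether expression differed with dose rate at equal dose. Here the mitochondrial ribosomal protein genes lay close to 0. Of 75 genes 27 were higher on FLASH, 15 had the same value and 33 were lower, beside 25.4%, 43.0% and 31.6% of all detected genes. This split changed with the scaling, to 23 higher and 52 lower under median centring and to 32 higher and 42 lower under quantile normalisation. The median was 0.00 for the 75 genes and for all detected genes, and values ran from -0.32 to 0.41. At least 25% higher on FLASH were 2 genes (background 3.58%), Mrps36 at 0.41 and Mrps14 at 0.35, and 0 were at least 20% lower (background 3.17%). Mrpl30 came nearest on the lower side, with 10.58 on FLASH, 10.90 on CDR and 10.47 on non-irradiated, a difference of -0.32 between FLASH and CDR.

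Of the 10 small subunit genes with no bacterial counterpart, 8 read lower on FLASH than on CDR, of which Mrps27 was lowest at -0.20, followed by Mrps31 at -0.13 and Mrps18b at -0.12. That group had a median of -0.07, against 0.03 for the 15 bacterial homologues of the small subunit. Mrps10 was at -0.19, while Mrps21 and Mrps7 were at 0.22 and 0.19. In the large subunit Mrpl32 was at 0.22, Mrpl9 at 0.20 and Mrpl1 at -0.15. With no replicate of either array, these values cannot be set against a spread.

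Genes that act with the mitochondrial ribosome were compared from lists of the same pathway. Of 4 measured mitoribosome proteins under other symbols, all 4 were higher on both irradiated arrays, with medians of 0.23 on FLASH and 0.26 on CDR. Ptcd3, an RNA-binding small subunit protein, was at 0.35 on FLASH and 0.46 on CDR, and Dap3, a GTP-binding small subunit protein, at 0.24 on FLASH and 0.32 on CDR. Genes that build the ribosome or serve it differed less uniformly, and many held the same value on the arrays compared. Of 26 assembly factors 12 were higher, 10 the same and 4 lower on FLASH, and 13 higher, 9 the same and 4 lower on CDR, with medians of 0.00 on FLASH and 0.01 on CDR. The means were 0.10 on FLASH and 0.12 on CDR. Beside 9.7% and 9.8% of all detected genes, 5 assembly factors on FLASH and 6 on CDR were at least 25% higher. Among them was Noa1, a GTPase of mitoribosome assembly, with 8.54 on FLASH, 8.42 on CDR and 7.87 on non-irradiated. Eral1, which chaperones the small subunit rRNA, was at 0.41 on FLASH and 0.47 on CDR, and Fastkd2, an RNA-binding protein of large subunit assembly, at 0.37 on FLASH and 0.38 on CDR.

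Mitochondrial translation factors split in the same way. Of 16 detected, 10 were higher, 5 the same and 1 lower on FLASH, and 8 higher and 8 the same on CDR. At least 25% higher were 4 on FLASH and 5 on CDR, beside 9.7% and 9.8% of all detected genes. By the opposite measure, 0 were lower by that much. The medians were 0.03 on FLASH and 0.01 on CDR, and the means 0.20 on FLASH and 0.22 on CDR. The elongation factor genes led. Tsfm, the exchange factor that recharges EF-Tu, read 7.66 on FLASH, 7.58 on CDR and 6.61 on non-irradiated, and Gfm1, the translocase EF-G1, read 8.47 on FLASH, 8.63 on CDR and 7.77 on non-irradiated. Both were clearly lowest on the non-irradiated array, whereas Tufm, EF-Tu itself, read 7.49 on FLASH and 7.43 on CDR and non-irradiated. Lrpprc, which stabilises mitochondrial mRNAs, was at 0.44 on both. Of 19 genes for charging mitochondrial tRNAs, 11 were higher and 8 the same on FLASH, 12 higher and 7 the same on CDR, and 0 lower on either. At least 25% higher were 4 on FLASH and 5 on CDR, beside 9.7% and 9.8% of all detected genes. The tyrosine enzyme gene Yars2 led, at 0.60 on FLASH and 0.78 on CDR. Medians of the 19 were 0.07 on FLASH and 0.05 on CDR, and means 0.14 on FLASH and 0.18 on CDR.

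Genes of mitochondrial DNA transcription and copying had medians of 0.01 on both irradiated arrays over 10 detected genes, and 1 stood far from the rest. Tfb2m, the factor that opens mitochondrial promoters, read 5.41 on FLASH and 5.56 on CDR, against 3.39 on non-irradiated, below the detection level, so that it was at least 2.40-fold higher on FLASH and at least 2.66-fold higher on CDR. Its partners showed no such gap: Tfam, which packages mitochondrial DNA, was at 0.03 on FLASH and 0.00 on CDR, and Polrmt, the RNA polymerase, at 0.01 on FLASH and 0.03 on CDR. Of 8 detected regulators 5 were higher, 1 the same and 2 lower on FLASH, and 7 higher and 1 lower on CDR. Ppargc1b, the coactivator PGC-1 beta, was the 1 regulator at least 25% higher, at 0.54 on CDR, against 0.14 on FLASH, and it was at -0.39 between FLASH and CDR. Gabpb1, which pairs with Gabpa to form GABP, read lower on both, at -0.30 on FLASH and -0.24 on CDR. Pprc1, a growth-responsive coactivator, was at 0.30 on FLASH and 0.23 on CDR, Nrf1 at 0.11 on each, Gabpa at 0.11 on FLASH and 0.20 on CDR, Yy1 at 0.20 on FLASH and 0.23 on CDR, Esrra at 0.00 on FLASH and 0.08 on CDR, and Myc at -0.01 on FLASH and 0.00 on CDR. Ppargc1a, the coactivator PGC-1 alpha, read 2.81 on every array, below detection.

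Nuclear oxidative phosphorylation genes and cytosolic ribosomal protein genes, the most similar gene families, had lower medians and a wider range of differences. Of 68 detected oxidative phosphorylation genes 48 were higher and 6 lower on FLASH, and 52 higher and 5 lower on CDR. Their medians were 0.10 on FLASH and 0.13 on CDR. Values ran from -0.86 to 0.83 on FLASH and from -0.47 to 1.11 on CDR. At least 25% higher were 7 on FLASH and 6 on CDR, beside 9.7% and 9.8% of all detected genes. Cytosolic ribosomal protein genes, of which 54 were detected, are a family with numerous pseudogenes that can blur a single gene’s value. Of the 54, 32 were higher and 13 lower on FLASH, and 28 higher and 17 lower on CDR, with medians of 0.04 on FLASH and 0.02 on CDR. At least 25% higher were 13 of the 54 on FLASH and 16 on CDR. In deposited values 5 of the 54 on FLASH and 8 on CDR were at least 1.5-fold higher, beside 3.4% and 3.16% of all detected genes. For the 75 mitochondrial ribosomal protein genes these counts were 3 on FLASH and 4 on CDR. Rps2, counted on both arrays, read 3.65 on non-irradiated, below the detection level. Against that level it was at least 1.58-fold higher on FLASH but only at least 1.44-fold higher on CDR. Single differences in the cytosolic family reached 1.57 on FLASH and 1.31 on CDR. Its means were 0.18 on FLASH and 0.20 on CDR, against 0.25 for the mitochondrial ribosomal protein genes on both arrays. These differences between families were not tested.

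**Figure D4:**
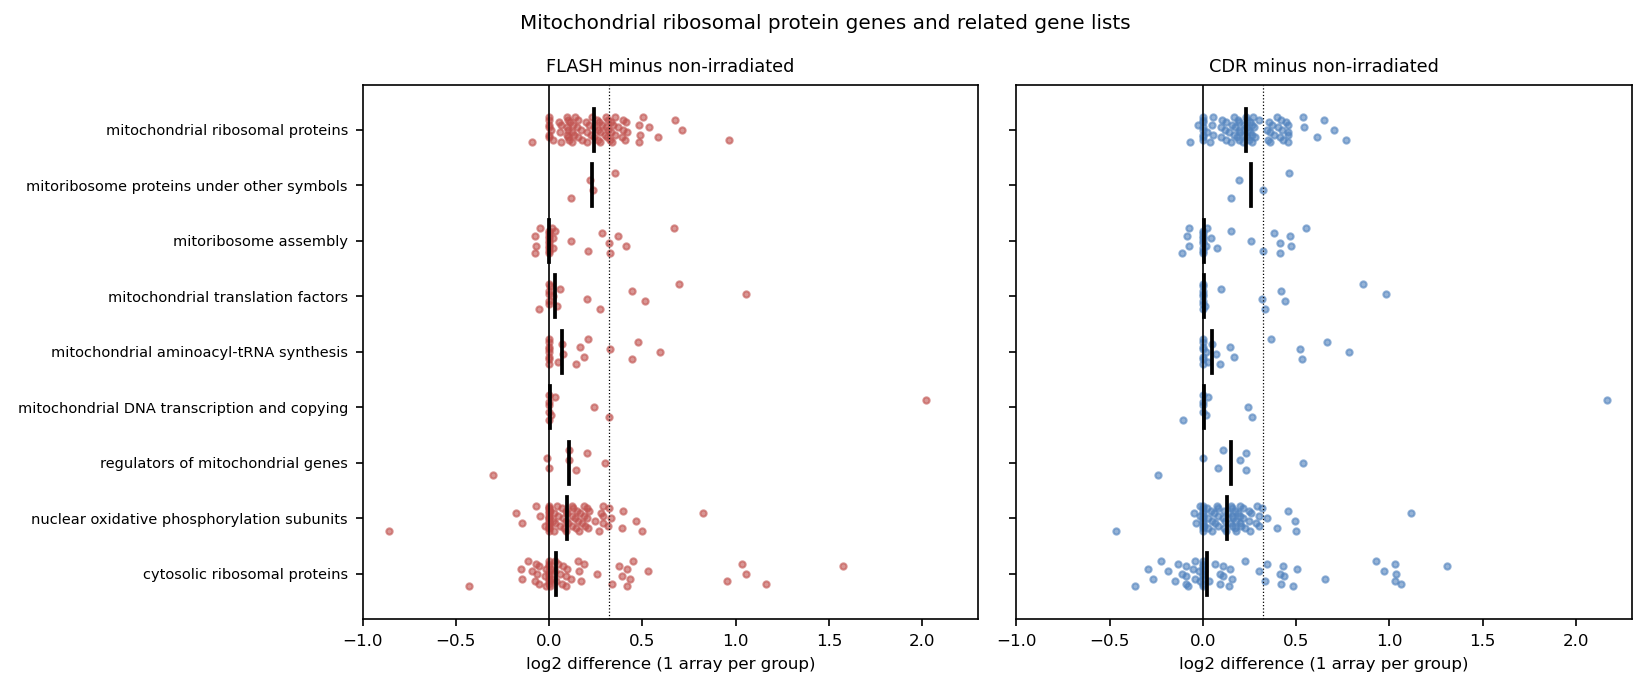
Log2 difference from the non-irradiated array of each detected gene in 9 gene lists, on FLASH (left) and CDR (right); black bars are list medians, the dotted line marks 25% higher, and each group had 1 array. The mitochondrial ribosomal protein genes sit together around 0.24 and 0.23, the assembly and translation factor lists have medians near 0 with single genes far to the right, and the outlying point near 2 is Tfb2m.

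Markers of other cells and of division also differed between the arrays. All 8 measured erythroid markers of 13 were higher on both irradiated arrays, and their levels summed on the linear scale came to 1861 on FLASH, 1599 on CDR and 717 on non-irradiated. All 11 measured mitotic markers of 12 were higher too, with sums of 8331 on FLASH, 8106 on CDR and 5863 on non-irradiated. The 10 LT-HSC markers summed to 1379 on FLASH, 1507 on CDR and 2763 on non-irradiated. Of the 10, 8 were lower, 1 the same and 1 higher on FLASH, and 9 lower and 1 the same on CDR. Hlf differed most, at 8.02 on FLASH, 7.92 on CDR and 9.92 on non-irradiated, whereas Slamf1 was at 0.11 on FLASH and -0.02 on CDR. Monocyte and dendritic cell markers summed to 3417 on FLASH, 2271 on CDR and 1363 on non-irradiated, over 9 genes. Of the 8 detected, 6 were higher and 2 lower on FLASH, and 7 higher and 1 lower on CDR. Clec9a, H2-Eb1, H2-Aa and Cd74 were higher on FLASH by 1.74 to 2.36, whereas Csf1r was at -0.78 and Ly86 at -0.60 on FLASH. Between FLASH and CDR 4 of the 8 were higher and 4 lower. The part of any of these in the shift of the mitochondrial ribosomal protein genes was not tested.

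The remaining lists moved less uniformly. Of 9 granulocyte markers, which summed to 9994 on FLASH, 10543 on CDR and 9869 on non-irradiated, 4 of 8 detected were higher and 4 lower on each irradiated array. Mpo read highest of the list, at 12.45 on FLASH, 12.52 on CDR and 12.36 on non-irradiated. Lcn2 was at 1.42 on FLASH and 2.17 on CDR, and Cebpe at 0.77 on FLASH and 0.88 on CDR. In the other direction S100a9 was at -1.31 on FLASH and -2.25 on CDR, and Ngp at -1.69 on FLASH and -1.67 on CDR. Sums for 7 B and plasma cell markers were 4633 on FLASH, 2486 on CDR and 5471 on non-irradiated. Of the 6 detected, 1 was higher, 1 the same and 4 lower on each irradiated array. The 6 mast cell and basophil markers summed to 1382 on FLASH, 1229 on CDR and 1750 on non-irradiated. Of the 6, 2 were higher and 4 lower on FLASH, and 1 was higher, 1 the same and 4 lower on CDR. Tpsb2 was at least 6.31-fold higher on FLASH and at least 3.34-fold higher on CDR, against the detection level. Prss34 was at -1.38 on FLASH and -2.71 on CDR. The 4 progenitor markers summed to 3026 on FLASH, 3298 on CDR and 3702 on non-irradiated. Of the 3 detected, 1 was higher and 2 lower on each irradiated array. Sums for 7 T and NK cell markers were 382 on FLASH, 237 on CDR and 441 on non-irradiated. Of the 4 detected, 2 were higher, 1 the same and 1 lower on FLASH, and 1 higher, 2 the same and 1 lower on CDR. Cd3e and Cd3g of the T cell receptor complex were below detection on every array. Trbc2, a T cell receptor constant region gene of the same list, read 7.90 on FLASH, 6.67 on CDR and 8.23 on non-irradiated, and Klrb1c, an NK cell receptor gene, 5.99 on every array. In RNA pooled from many cells, fewer cells of a type and less RNA per cell cannot be told apart.

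Because so many of these genes differed in the same direction, the sequences just before their start sites are shown for 5 genes with wide differences on at least 1 irradiated array and for a pair with none. RefSeq start sites (GRCm38.p6) were matched by gene identifier for 67 of the 76 genes. Windows of 300 bases, 250 before the start and 50 after it, were searched on both strands for letters bound by factors known for mitochondrial genes: GCGCNTGCG for NRF1, CCGGAAGT for ETS factors such as GABP, and AAGATGGCG for YY1, and for the E-box CACGTG. The 150 bases before the start are printed 5′ to 3′ on the gene's strand, with any match in capitals.
Mrpl20 (chr4:155802728-155802877, plus strand): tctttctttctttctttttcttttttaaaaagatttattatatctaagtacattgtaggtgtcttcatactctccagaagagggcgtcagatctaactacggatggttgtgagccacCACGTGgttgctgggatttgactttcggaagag
Mrpl32 (chr13:14613038-14613187, minus strand): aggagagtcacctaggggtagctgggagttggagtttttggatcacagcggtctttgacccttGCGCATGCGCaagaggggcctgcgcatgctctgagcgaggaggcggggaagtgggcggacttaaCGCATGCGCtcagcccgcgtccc
Mrps14 (chr1:160195065-160195214, plus strand): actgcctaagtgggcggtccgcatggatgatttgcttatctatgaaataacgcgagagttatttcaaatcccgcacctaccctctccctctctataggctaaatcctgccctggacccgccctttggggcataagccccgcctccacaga
Mrps27 (chr13:99344636-99344785, plus strand): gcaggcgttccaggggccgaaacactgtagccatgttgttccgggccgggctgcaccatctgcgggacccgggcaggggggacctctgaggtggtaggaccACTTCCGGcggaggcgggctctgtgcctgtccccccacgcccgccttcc
Mrps22 (chr9:98601680-98601829, minus strand): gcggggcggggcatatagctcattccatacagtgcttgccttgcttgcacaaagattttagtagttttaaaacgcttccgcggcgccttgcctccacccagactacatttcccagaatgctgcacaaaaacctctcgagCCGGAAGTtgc
Mrpl17 (chr7:105811088-105811237, minus strand): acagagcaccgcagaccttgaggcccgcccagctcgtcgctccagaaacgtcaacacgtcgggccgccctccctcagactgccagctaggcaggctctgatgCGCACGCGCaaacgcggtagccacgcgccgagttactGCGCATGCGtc
Mrpl44 (chr1:79775868-79776017, plus strand): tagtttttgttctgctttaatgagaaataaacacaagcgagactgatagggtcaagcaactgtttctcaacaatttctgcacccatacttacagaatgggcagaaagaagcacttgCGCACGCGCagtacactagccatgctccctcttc

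The capitals mark an E-box in Mrpl20, NRF1 letters in Mrpl32, Mrpl17 and Mrpl44, and ETS letters in Mrps27 and Mrps22, while Mrps14 held no match. Mrpl32, at 0.68 on FLASH and 0.46 on CDR, and Mrpl17 and Mrpl44, with the same value on all 3 arrays, all carry matches to the NRF1 letters. Mrpl17 and Mrpl44 were picked, with values known, from 6 genes with the same value on all 3 arrays. Of the others, Mrpl10 and Mrpl57 held NRF1 letters, and Mrpl24 and Mrpl28 held no match. Nothing is read from setting these genes beside Mrpl32. In Mrpl32 the first stretch in capitals is a pair of overlapping matches, 1 on each strand. Mrps27 also holds YY1 letters just past its start, outside the stretch shown.

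Over whole windows, NRF1 letters were found in 18 of the 67 genes (26.9%), beside 14.6% of 10243 detected genes with a window. ETS letters were found in 10 (14.9%, beside 8.7%), YY1 letters in 8 (11.9%, beside 3.4%) and the E-box in 4 (5.97%, beside 11.6%). Over all 27025 genes with a window the shares were 7.12% for NRF1, 4.31% for ETS, 1.64% for YY1 and 8.09% for the E-box. Any of NRF1, ETS and YY1 letters stood in 33 of the 67 genes (49.3%), beside 24.2% of detected genes. That share was 55.2% of the 29 genes with a window that were at least 25% higher on either irradiated array and 45.9% of the other 37 detected genes. The NRF1 letters were first searched with 1 more base, a final C, and were shortened after the shares from that search had been seen. The longer letters stood in 19.4% of the 67 genes, beside 10.9% of detected genes, and any of NRF1, ETS and YY1 letters then in 43.3%, beside 21.1%. With them the share was 44.8% of the 29 genes and 43.2% of the other 37, so the gap between these sets changes with 1 base of the letters and nothing is read from it. These matches describe letters and not binding.

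A gene from each subunit shares its start region. Mrpl46, of the large subunit, and Mrps11, of the small one, are transcribed away from each other on chromosome 7, with 41 bases between their RefSeq start sites. That stretch, on the plus strand, is shown because both genes start at its ends.
Mrpl46 to Mrps11 (chr7:78783090-78783130): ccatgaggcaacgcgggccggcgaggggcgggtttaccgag
Mrpl46 read 8.62 on both FLASH and CDR and 8.34 on non-irradiated. Mrps11 read 8.63 on FLASH, 8.55 on CDR and 8.36 on non-irradiated. Both genes were higher on both irradiated arrays, Mrpl46 by 0.27 on each and Mrps11 by 0.27 on FLASH and 0.19 on CDR.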

How the data were processed

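The files hold 25206 probe sets on 3 arrays, 1 per group. The authors deposited 1 log2 level per probe set and array. The log2 unit was read from the range of values. Partek, without a version, appears in the submitters' processing notes. How background was corrected, probes summarised or arrays normalised is not given in the sources used here, and the values were taken as they stand.

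The platform's probe table gave 1 symbol to 23185 probe sets, several to 0 and none to 2021. Differences were taken on values as deposited, without a test. Genes at least 25% higher or 20% lower were counted and set beside all detected genes. The gene groups and lists were chosen with earlier results of these data known, and list genes without a value here were not analysed. The plan was to name, for each comparison, the 6 highest and 6 lowest large subunit genes. It also took the 4 highest and 4 lowest small subunit genes, up to 4 per direction of each pathway list, and a few fixed regulators. The text does not keep to this plan throughout. It gives no values for some of these genes and gives values for others outside the plan, such as Mrpl2 and Mrps9. Promoters shown, and Mrpl46 and Mrps11, were chosen after their values were seen. Where an array lay below its detection level the fold is a lower bound against that level. Precision is limited by there being 1 array per group. A search by symbol for mitochondrially encoded genes matched 0 genes, so they were not analysed here.

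Alternatives were median centring, quantile normalisation, a filter at the 99th percentile or none, an offset of 32 on the linear scale, and folds of 1.5 and 2. Python 3.11.15, numpy 2.4.6, pandas 2.3.3, scipy 1.17.1 and matplotlib 3.10.9 were used, and the steps were tested on simulated data.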

Additional observations from a re-analysis of the deposited data

Results flagged for a closer look

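Mrps6, a small subunit gene, was the 1 gene of 75 whose differences from the non-irradiated array pointed in opposite directions, at 0.0555 on FLASH and -0.0266 on CDR. Both values are small and the difference between them was not tested.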

How the results depend on the processing

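No paired analysis was possible because each group had 1 array and the labels give no replicate numbers. The median difference of the mitochondrial ribosomal protein genes stayed positive against the non-irradiated array under every scaling, offset and filter tried, from 0.21 to 0.27 on FLASH and from 0.20 to 0.29 on CDR. Counts at least 25% higher ran from 16 to 29 on FLASH and from 20 to 28 on CDR, with 0 lower in each. A fold of 1.5 left 3 genes higher on FLASH and 4 on CDR, and a fold of 2 left 0 on either, since fewer genes reach a higher fold. Quantile normalisation gave 8 genes lower on FLASH and 10 on CDR, against 1 and 2 in deposited values, and median centring gave 1 on each. Between FLASH and CDR the 27 genes higher and 33 lower became 23 and 52 under median centring and 32 and 42 under quantile normalisation. There the 2 genes at least 25% higher became 1 under median centring and 0 with the offset or with folds of 1.5 and 2, and 1 gene was at least 20% lower under median centring and under quantile normalisation. The cause was not tested. The median of all detected genes moved by at most 0.06. With 1 array per group no difference has a replicate check, and Mrpl23 was near the detection level.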
